A study of Rattus norvegicus with 12 samples.

Results

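The genes of 3 families of gut neuropeptides and their receptors were followed in the colon of rats: the tachykinins (Tac1 and the receptors Tacr1, Tacr2 and Tacr3), vasoactive intestinal peptide (Vip and the receptors Vipr1 and Vipr2) and the calcitonin family (Calca, Calcb and Iapp). The members were chosen by name, as every probe other than controls whose gene name in the array files is one of these 10. They were 12 probes of 30367, since Tac1 and Calca had 2 probes each, and 10 genes of 26514 gene names on the array. Where a gene had 2 probes, it is described by the probe with the higher mean signal, and the other is given to show where they disagree.

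Colon was taken from male Wistar rats of 200 to 250 g in 3 groups of 4, with 1 array of 1 colour for each rat. Group C (rats C1 to C4) was normally handled and received placebo, 100 µL of saline by daily gavage from day 3 to day 60. Group M (M5 to M8) had the same placebo and underwent neonatal maternal separation (NMS), in which pups are taken from the dam for 180 min a day from day 2 to day 14, a model of visceral hypersensitivity. Group D (D9 to D12) underwent the same NMS and received VSL#3, a mixture of probiotic bacteria, at a daily dose of 18000000000 bacteria as the labels give it, in the same volume and over the same days. All rats had colorectal distension (CRD), a balloon test of visceral pain, and were sacrificed on day 60, so that gavage and CRD are shared by the groups and no group shows the colon without CRD. The litter of each rat is not given in the sources used here. The study's analysis used 11 arrays, without D12 and with no reason given, and the tests below use these 11. The values of D12 are printed beside them.

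These peptides are messengers of enteric and sensory nerve fibres, and their receptors are coupled to G proteins. Substance P and neurokinin A, which are both cut from the Tac1 precursor, contract gut muscle and take part in pain signalling. VIP relaxes gut muscle and drives secretion by way of cAMP, and the calcitonin gene-related peptides (CGRP) of Calca and Calcb dilate vessels and are released by sensory and enteric nerves. All values are the log2 of the signal relative to the 75th percentile of the array, on which scale a difference of 1 is a 2-fold change. Signals of different probes cannot be set against each other on such arrays, so that each gene is compared with itself across rats.

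The 75th percentile of the signal lay between 1434 and 1950 units, 75.5% to 77.5% of the spots of an array were well above background, and no spot was saturated. Markers placed the tissue as colon: all 12 arrays showed all 11 genes of a colonic epithelium list and all 10 of a smooth muscle list. Groups C and M shared 1 slide and all of Group D lay on another, so that slide and group cannot be told apart in any comparison with Group D, while Group M vs Group C was compared within 1 slide. Markers of B cells split the rats. The mean of 2 of them (Cd79b and Ms4a1) was -0.76 in C2, 0.23 in M5, -0.72 in M7, -0.29 in M8 and 0.78 in D12, and lay between -6.22 and -3.62 in the other rats. In this homogenised tissue, fewer cells of a type and less RNA per cell cannot be told apart.

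In Group M the means of all 5 receptors were lower, and that of Calcb was higher, than in Group C. The rats M5, M7 and M8 lay below all of Group C in Tacr1, Tacr2, Vipr1 and Vipr2 and above all of it in Calcb, while M6 did not. In these 5 genes the mean of D9 to D11 was closer to that of Group C than to that of Group M. No member passed the adjusted test in any comparison. In Group M vs Group C, 0 of 12 probes were called by limma (adjusted p of at most 0.05 and at least a 2-fold change), against 0.168% of all probes, and 6 had an unadjusted p under 0.05, against 22.7% of all probes. The criterion of the study's methods takes a 2-fold change of the means for which the analysis of variance and Tukey's test both give an unadjusted p up to 0.05, and it was met by 2, Vipr2 and Calcb, against 2.33% of all probes. For no member did the rats of Group M lie wholly apart from those of Group C, against 9.25% of all probes. In Group D vs Group M limma called 0 of 12 (0.125% of all probes), 5 had an unadjusted p under 0.05 (21.6%), 3 met the criterion of the methods, Tacr2, Vipr1 and Vipr2 (2.65%), and 4 did not overlap between the groups, these 3 and Iapp (16%). In Group D vs Group C limma called 0 of 12 (0.00659%), 1, the other probe of Calca, had an unadjusted p under 0.05 (5.98%), 0 met the criterion of the methods (0.366%) and 1 did not overlap, Calcb (7.6%).

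The adjusted call depended on rat M6 and, with M6 kept, on the processing. With array weights limma called Tacr1, Vipr1, Vipr2 and Calcb in Group M vs Group C, and these and Tacr2 in Group D vs Group M. Without M6, limma called 5 members in Group M vs Group C, Tacr1, Tacr2, Vipr1 and Vipr2 lower and Calcb higher, and 6 in Group D vs Group M, the same 5 in the opposite direction and Iapp higher. The share of all probes called in such refits is not given here, so that these counts are not read as a trait of the members. With D12 in the fit, 0 members met the criterion of the methods in Group D vs Group M in place of 3. With a rat left out, those that met it numbered 0 (without M8) to 5 (without M6) in Group M vs Group C, with 1 without C1, C4, M5 or M7, and 1 (without M7) to 6 (without M6) in Group D vs Group M.

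**Figure D1:**
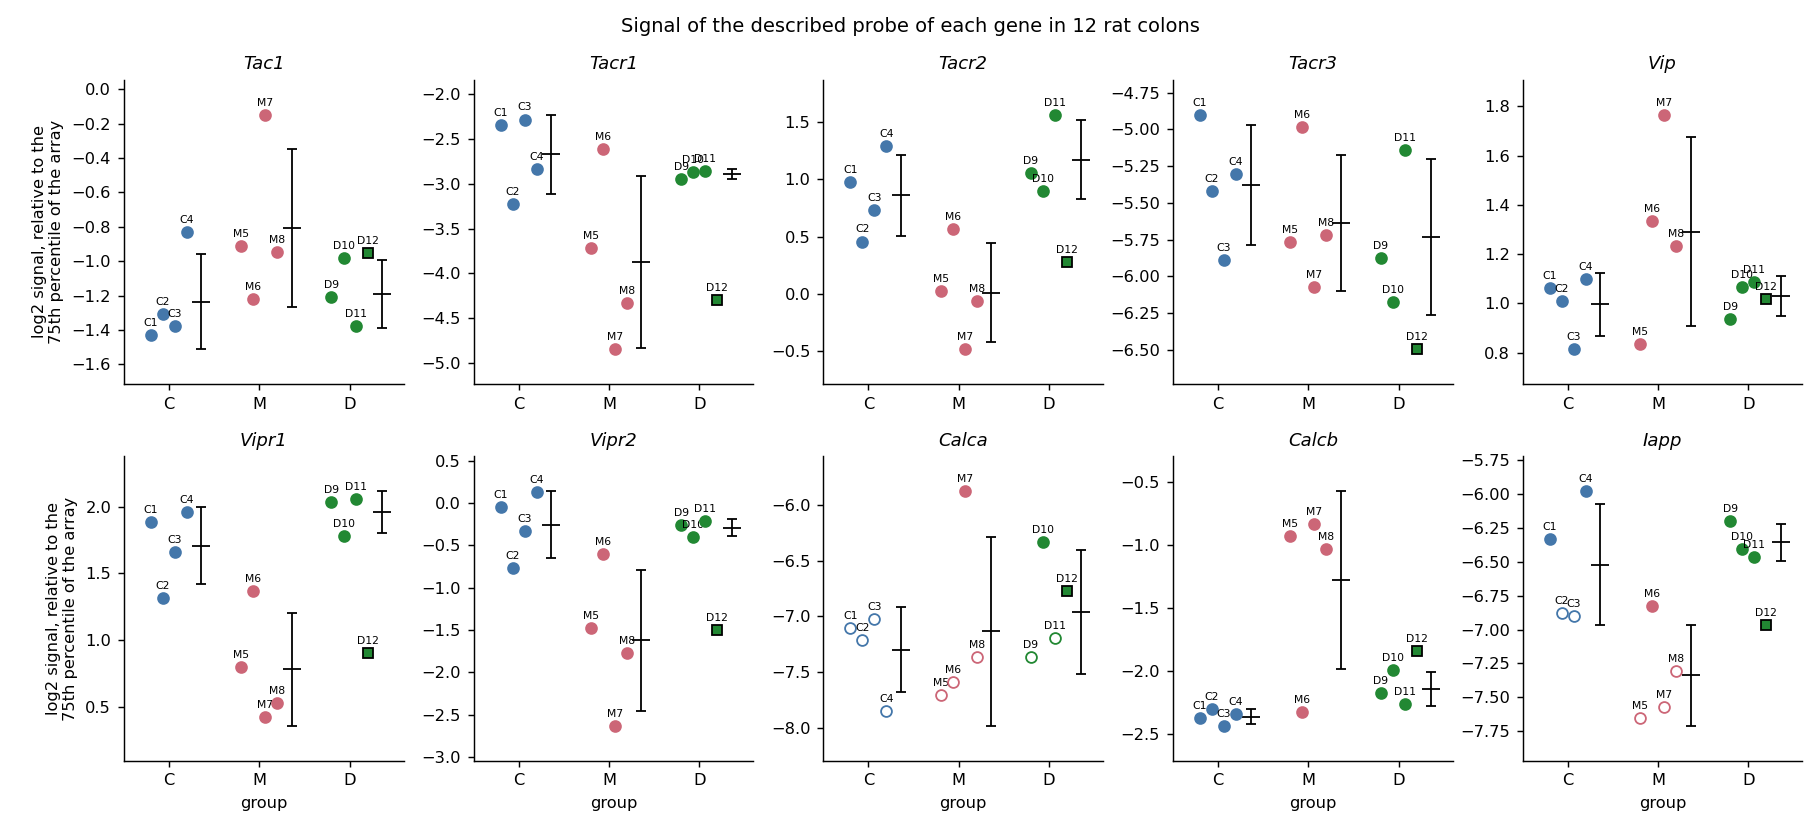
The log2 signal relative to the 75th percentile of the array (y axis) of each gene in each rat, by group (x axis). Filled points are well above background and open ones are not, the square is D12, and bars are the mean and SD without D12 (n = 4, 4 and 3). In Tacr1, Tacr2, Vipr1 and Vipr2 the rats M5, M7, M8 and D12 lie lowest, and in Calcb the rats M5, M7 and M8 lie at -1.03 or above and all the others at -1.85 or below.

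The tachykinin precursor Tac1 differed little. Its level was -1.43, -1.31, -1.37 and -0.83 in C1 to C4, -0.91, -1.22, -0.15 and -0.94 in M5 to M8, and -1.21, -0.98 and -1.38 in D9 to D11, with -0.95 in D12. M7 stood highest, and the groups overlapped. Group M lay 0.43 ± 0.23 (SE) above Group C (limma adjusted p = 0.29) and Group D lay 0.38 ± 0.24 below Group M (adjusted p = 0.391).

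The other Tac1 probe lies 5′ of it on chr4 (rn4 build of the array files), at chr4:32651286-32651345 against chr4:32657551-32657610, both on the + strand. It is annotated to transcript variant 3 in the array files. Its 60 bases are shown because they hold the peptide itself. The capitals mark the 15 bases that encode, in the first reading frame, the ending common to tachykinins (phenylalanine, any residue, glycine, leucine, methionine), by which these peptides bind their receptors.
Tac1, other probe: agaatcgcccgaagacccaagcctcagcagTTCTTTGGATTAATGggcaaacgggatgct
This probe had its highest values in the same rats, M7 (-2.52) and C4 (-3.21). It lay 0.48 ± 0.22 higher in Group M than in Group C (adjusted p = 0.228) and 0.33 ± 0.24 lower in Group D than in Group M (limma adjusted p = 0.461), so that both probes gave the same direction.

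Tacr1, the NK1 receptor for substance P, had a level of -2.35, -3.22, -2.29 and -2.84 in C1 to C4, and -3.72, -2.61, -4.84 and -4.33 in M5 to M8. M6 lay among the Group C rats and the other rats of Group M lay below them. The level was -2.95, -2.87 and -2.86 in D9 to D11, a narrow band inside the range of Group C, and -4.30 in D12, which lay with M5, M7 and M8. Group M was 1.20 ± 0.41 (SE) lower than Group C (limma adjusted p = 0.139), and Group D 0.98 ± 0.44 higher than Group M (adjusted p = 0.233). With D12 the latter was 0.63 (adjusted p = 0.61).

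Tacr2, the NK2 receptor, prefers neurokinin A and is the main tachykinin receptor of colonic muscle. Its level was 0.97, 0.46, 0.73 and 1.29 in C1 to C4, 0.02, 0.57, -0.48 and -0.06 in M5 to M8, and 1.06, 0.90 and 1.57 in D9 to D11. Every one of D9 to D11 exceeded every rat of Group M, while D12, at 0.28, fell inside its range. Group M was 0.85 ± 0.25 lower than Group C (adjusted p = 0.115), and Group D was 1.16 ± 0.27 higher than Group M, a 2.24-fold difference (limma adjusted p = 0.0835). With D12 it was 0.94 (adjusted p = 0.265). The study named Tacr2 and Iapp from these same arrays, so that their differences here are no independent evidence.

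Tacr3, the NK3 receptor for neurokinin B, was dim but well above background on all 12 arrays. Its levels ran from -5.89 to -4.90 in Group C, from -6.08 to -4.98 in Group M and from -6.18 to -5.14 in D9 to D11, with -6.50 in D12. The groups overlapped throughout. The difference was -0.26 ± 0.30 in Group M vs Group C (adjusted p = 0.655) and -0.10 ± 0.32 in Group D vs Group M (limma adjusted p = 0.896), and the replicate spots of this probe had an SD of up to 0.48 within an array.

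Vip itself differed little between groups. It was measured at 1.06, 1.01, 0.81 and 1.098 in C1 to C4, at 0.83, 1.33, 1.77 and 1.23 in M5 to M8 and at 0.94, 1.07 and 1.09 in D9 to D11, with 1.02 in D12. Its M7 value was the highest of all, as in Tac1, while M5 lay below all rats but C3. Group M was 0.30 ± 0.17 higher than Group C (adjusted p = 0.334), and Group D 0.26 ± 0.18 lower than Group M (limma adjusted p = 0.445).

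Vipr1, the VPAC1 receptor that the gut epithelium carries, showed the smallest adjusted p of the members. Its level was 1.89, 1.32, 1.66 and 1.96 in C1 to C4, 0.80, 1.37, 0.43 and 0.53 in M5 to M8, and 2.03, 1.78 and 2.06 in D9 to D11. M6 was within the range of Group C, the other rats of Group M were below it, and D9 to D11 were above all of Group M. D12 had 0.90. Group M was 0.92 ± 0.21 lower than Group C (adjusted p = 0.0961), and Group D was 1.18 ± 0.23 higher than Group M, a 2.26-fold difference (limma adjusted p = 0.0723). With D12 it was 0.91 (adjusted p = 0.265).

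Vipr2, the VPAC2 receptor of smooth muscle, had a level of -0.05, -0.77, -0.33 and 0.13 in C1 to C4, -1.48, -0.61, -2.63 and -1.77 in M5 to M8, and -0.26, -0.40 and -0.22 in D9 to D11, with -1.51 in D12. M6 alone of Group M reached into the range of Group C. This gave the widest separation of the means among the receptors. Group M was 1.37 ± 0.36 lower than Group C, a 2.58-fold difference (limma adjusted p = 0.106), and Group D was 1.33 ± 0.39 higher than Group M (adjusted p = 0.116). With D12 the latter was 1.03 (adjusted p = 0.364).

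**Figure D2:**
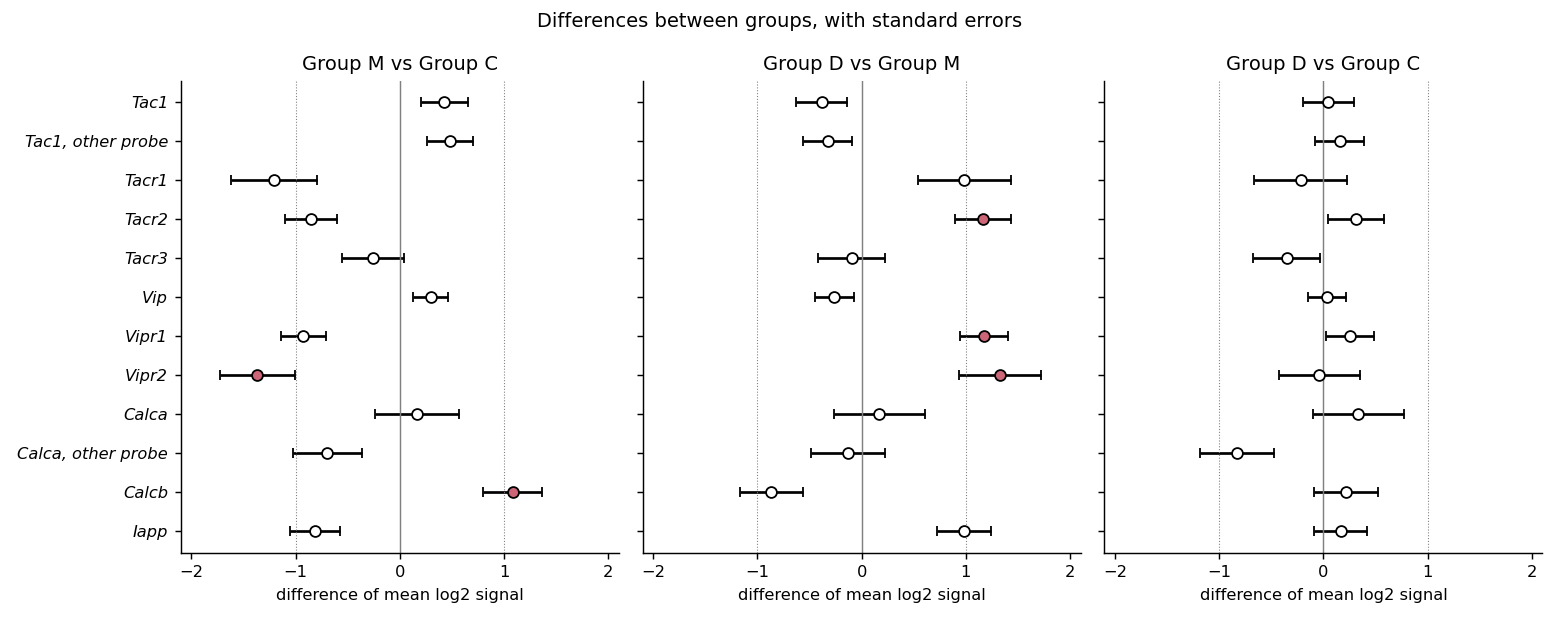
Difference of mean log2 signal (x axis) of the 12 probes in the 3 comparisons, with its standard error from limma (11 arrays), where filled points met the criterion of the methods and dotted lines mark a 2-fold change. The 5 receptors lie left of 0 in Group M vs Group C and, Tacr3 apart, right of 0 in Group D vs Group M, Calcb runs the other way, and in Group D vs Group C no probe met the criterion.

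These 4 receptors shared an order of rats. In each of Tacr1, Tacr2, Vipr1 and Vipr2 the 5 lowest of the 12 rats were M7, M8, M5, D12 and C2, which were also the 5 rats with the highest B cell markers. A list of 7 T cell genes had its highest values in the same rats, between -2.27 and -0.81, against -4.20 to -3.47 in the others. So did the means of lists of macrophages and monocytes (5 genes measured, 1.05 to 1.44 against 0.42 to 0.61) and of neutrophils (4 genes measured, -3.19 to -1.61 against -3.98 to -3.55). Of their genes Lyz2, Cd68, S100a8 and S100a9 split the rats in this way. Csf1r, Cd14 and Mpo did not, nor did Cd163, which was at -0.53 in D12. Ly6g6e was lowest in M7 (-1.21), M8 (-1.07) and M5 (-0.95). The mean of the 11 genes of the colonic epithelium list was lowest in these 5 rats too, 3.15 to 3.59 against 3.65 to 4.19. Its genes did not move together. Vil1 (0.91 to 1.27 against 1.60 or more), Car1 (-0.33 to 0.76 against 1.19 or more) and Aqp8 (-2.38 to -0.32 against 0.73 or more) were lowest in these 5 rats. The other genes of the list did not split the rats in this way, and Krt18 was highest in M7 (6.55) and M8 (5.91). In Group M vs Group C, 3 of the 11 were higher and 1 lower at an unadjusted limma p under 0.05 (22.7% of all probes), with a median difference of 0.08. Among these 5, the Group C rat kept a higher level than the Group M rats in all 4 receptors, as for Vipr2 with -0.77 in C2 against -1.48 to -2.63 in M5, M7 and M8. Of the rats with low B cell markers, M6 had less Vipr1 (1.37) than C1, C3 and C4 (1.66 to 1.96). It also had less Vipr2 (-0.61 against -0.33 to 0.13) and less Tacr2 (0.57 against 0.73 to 1.29), but its Tacr1 lay among theirs. The part of these cell types in the receptor differences was not tested.

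A smooth muscle list of 10 genes had a mean between 2.35 and 2.65 in Group C, 2.41 and 2.83 in Group M and 2.33 and 2.75 in D9 to D11. Its genes did not move together. Smtn (2.91 to 3.22 against 3.32 or more) and Lmod1 (-3.39 to -2.67 against -2.63 or more) were lowest in the 5 rats lowest in the 4 receptors. Myocd was higher in M5, M7 and M8 (-2.23 to -1.98) than in all of Group C (-3.57 to -2.67). Apart from Smtn and Lmod1, no gene of the list had these 5 rats as its lowest. An enteric neuron list, of whose 14 genes 10 were detected in all rats and 1 in no rat, lay between -4.03 and -3.71, -3.98 and -3.78, and -3.71 and -3.63. Markers of interstitial cells of Cajal, the pacemaker cells of the gut (Kit, Ano1 and Etv1), were lowest in M7 (-2.25), D12 (-2.16), M8 (-2.13) and M5 (-1.96), against -1.62 to -1.11 in the others. Enteric glia (4 genes measured, 3 of them detected in all rats) were higher in all of Group M (-3.78 to -3.53) than in Group C (-4.22 to -3.94) and in D9 to D11 (-4.35 to -3.94), with -3.56 in D12. Their part in the receptor values was not tested.

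**Figure D3:**
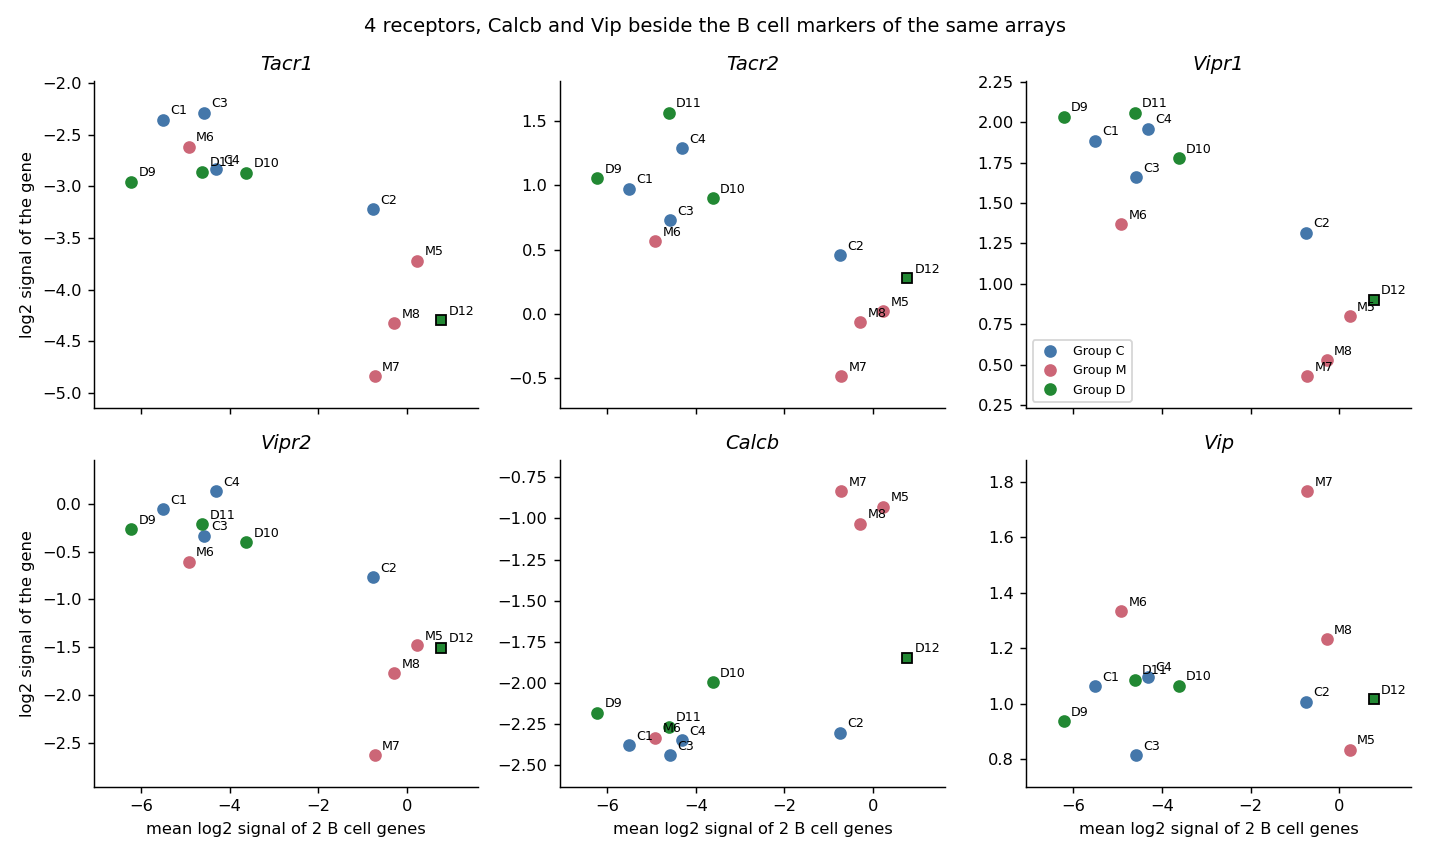
Log2 signal of 4 receptors, Calcb and Vip (y axes) against the mean log2 signal of 2 B cell genes on the same array (x axis), 1 point for each of 12 rats, with D12 as a square. The 5 rats farthest right on the x axis (-0.76 to 0.78) are the lowest in each receptor, while Calcb is highest in M5, M7 and M8, with D12 (-1.85) next and C2 (-2.30) the highest of Group C.

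Since these receptors moved together, the promoters of the 4 are shown, from 250 bases before to 50 bases after the start of the gene. They are RefSeq sequences of the GRCr8 build, not rn4, and 9 of the 10 members were matched. Capitals mark matches on either strand to 3 motifs. They are the TATA box, searched as TATAAA, next the GC box that Sp1 binds, searched as GGGCGG, and last the core of the cAMP response element, searched as TGACG. The whole cAMP response element, TGACGTCA, which begins with TGACG, was searched as well, and in Vipr1 a TGACG match shares 1 base with a GC box.
Tacr1, chr4:116478367-116478666 (+): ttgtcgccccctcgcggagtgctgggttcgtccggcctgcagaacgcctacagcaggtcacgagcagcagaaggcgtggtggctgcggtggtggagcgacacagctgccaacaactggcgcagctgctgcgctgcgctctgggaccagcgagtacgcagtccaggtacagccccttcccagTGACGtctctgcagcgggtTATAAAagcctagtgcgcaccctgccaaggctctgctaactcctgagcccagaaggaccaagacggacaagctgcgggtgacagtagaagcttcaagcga
Tacr2, chr20:30751395-30751694 (+): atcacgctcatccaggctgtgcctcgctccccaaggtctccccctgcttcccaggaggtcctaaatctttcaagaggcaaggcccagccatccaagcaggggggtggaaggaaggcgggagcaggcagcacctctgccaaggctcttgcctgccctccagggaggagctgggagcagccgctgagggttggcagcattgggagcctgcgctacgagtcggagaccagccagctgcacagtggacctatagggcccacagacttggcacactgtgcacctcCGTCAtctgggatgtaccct
Vipr1, chr8:130187511-130187810 (+): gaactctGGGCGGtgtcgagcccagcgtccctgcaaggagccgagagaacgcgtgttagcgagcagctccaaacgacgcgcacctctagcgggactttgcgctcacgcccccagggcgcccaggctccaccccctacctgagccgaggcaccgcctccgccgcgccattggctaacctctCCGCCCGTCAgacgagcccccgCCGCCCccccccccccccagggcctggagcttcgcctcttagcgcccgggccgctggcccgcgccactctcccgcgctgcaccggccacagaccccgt
Vipr2, chr6:143144273-143144572 (+): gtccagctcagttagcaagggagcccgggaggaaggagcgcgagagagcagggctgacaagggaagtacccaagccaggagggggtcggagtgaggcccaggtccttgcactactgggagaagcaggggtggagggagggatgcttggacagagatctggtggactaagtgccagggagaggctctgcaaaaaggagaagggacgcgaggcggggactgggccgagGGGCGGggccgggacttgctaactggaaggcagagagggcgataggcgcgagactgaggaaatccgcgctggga
GGGCGG was found in both Vip receptor promoters, 3 times in Vipr1 and 1 time in Vipr2, in neither of the tachykinin receptors, and in 33.1% of all 33469 promoters. Among the 4, TATAAA was in Tacr1, 50 bases before the start, and it was in 14.2% of all promoters. TGACG was in 7 of the 9 matched members, all but Vipr2 and Iapp, and in 21.2% of all promoters, and the whole response element was in 0 of the 9 and in 1.83% of all. G and C made up 62.7%, 63%, 73.3% and 64% of the bases of Tacr1, Tacr2, Vipr1 and Vipr2, against a median of 51.7%. The 4 promoters thus held no motif of these in common.

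Among the calcitonin-family precursors, Calcb, which encodes CGRP beta, the CGRP of enteric neurons, had the clearest pattern. It lies at chr1:172780881-172780940 (rn4, + strand) by its probe, and the 2 probes of Calca lie on the - strand of the same chromosome at chr1:172686203-172686262 and chr1:172688192-172688251. Its level was -2.38, -2.30, -2.44 and -2.35 in C1 to C4, -0.93, -2.33, -0.84 and -1.03 in M5 to M8, and -2.18, -1.995 and -2.27 in D9 to D11. Thus M5, M7 and M8 stood apart, M6 was level with Group C, and D9 to D11 lay just above all of Group C.

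Group M was 1.08 ± 0.28 (SE) higher than Group C in Calcb, a 2.12-fold difference (limma adjusted p = 0.105), and without M6 it was 1.43 (adjusted p = 0.000687). From Group M to Group D the difference was -0.86 ± 0.31 (adjusted p = 0.153), and -1.21 without M6 (adjusted p = 0.00237). Since M6 was the rat of Group M at the level of Group C, leaving it out had to widen both differences. Both p-values without M6 were the smallest of 23 settings and are no support for a difference. The gap between Group D and Group C was 0.22 ± 0.31 (limma adjusted p = 0.999), with no overlap of the rats. Of the other rats with high B cell markers, C2 (-2.30) was the highest of Group C in Calcb and D12 (-1.85) the highest of Group D, both below M5, M7 and M8. A list of 6 primary sensory neuron genes, of which 3 were detected in all rats and 1 in no rat, lay between -5.36 and -4.69 in Group C and between -5.07 and -4.55 in Group M. Mast cell markers (6 genes, 5 of them detected in all rats) were higher in all of Group M (-3.06 to -2.23) than in Group C (-4.73 to -4.10), M6 included at -3.06, whose Calcb was at the level of Group C. The list lay between -3.85 and -2.98 in D9 to D11, and the part of these cells and of lymphoid cells in the Calcb values was not tested.

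Calca encodes calcitonin and, by another splicing of the transcript, CGRP alpha. Its described probe (transcript variant 2) was well above background in M7 (-5.88), D10 (-6.33) and D12 (-6.77) alone, and the other probe (transcript variant 1) in C2 alone. In no group were all arrays above background for either probe, and no fold is given. The longest run of bases shared by the Calcb probe and a Calca probe was 7, and by the Calcb probe and any member's probe 8.

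Iapp, the precursor of amylin, is best known from the beta cells of the pancreas. It was near background, well above it in C1 (-6.33), C4 (-5.98), M6 (-6.82), D9 (-6.20), D10 (-6.40), D11 (-6.46) and D12 (-6.97), and not in the other rats, which lay between -7.65 and -6.88. That is 2 of 4 rats in Group C, 1 of 4 in Group M and 3 of 3 in D9 to D11, which all lay above Group M. The measured means differed by -0.82 ± 0.24 in Group M vs Group C (adjusted p = 0.114) and by 0.98 ± 0.26 in Group D vs Group M (limma adjusted p = 0.0993). With the normexp background correction they differed by -0.17 (adjusted p = 0.378) and 0.25 (limma adjusted p = 0.212). By the authors' matrix, quantile normalization or centring on the median, Iapp met the criterion of the methods in Group D vs Group M. Of a pancreatic islet list, 3 of the 6 measured genes were detected in all rats and 2 in no rat, and the list lay between -6.07 and -5.51 in these 11 rats.

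Over the 10 genes, 6 were lower and 4 higher in Group M vs Group C, with all 5 receptors among the lower, and the median difference was -0.54, against -0.01 over all probes. Between Group D and Group M 6 were higher and 4 lower, with a median of 0.58 against 0.02, and the one receptor among the lower was Tacr3. Both comparisons share the rats of Group M. For Group D vs Group C the median was 0.10 and the smallest adjusted p by limma was 0.974.

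Of the 42 other genes of these pathways, 41 were measured, 1 probe each. In Group M vs Group C limma called 0, 8 had an unadjusted p under 0.05 (2 higher and 6 lower, against 22.7% of all probes), 0 met the criterion of the methods, and 5 did not overlap between groups (1 higher and 4 lower, against 9.25%). The median difference of the list was -0.01, the same as over all probes. In Group D vs Group M limma called 0, 9 had an unadjusted p under 0.05 (6 higher and 3 lower, against 21.6%), 1 met the criterion of the methods (2.65%), and 6 did not overlap (5 higher and 1 lower, against 16%), with a median of 0.08 against 0.02. In Group D vs Group C limma called 0, 1 had an unadjusted p under 0.05 (5.98%), 0 met the criterion of the methods and 1 did not overlap (7.6%). These shares of the 41 were near those of all probes. The 1 gene of the last comparison was Adcy9, an adenylyl cyclase that makes cAMP, at 0.38 ± 0.15 (limma adjusted p = 0.789). Without M6 limma called 3 genes in Group M vs Group C (Adm, Adm2 and Dpp4) and 3 in Group D vs Group M (Adm2, Dpp4 and Ece2). For that refit the share of all probes called is not given here.

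Gna11, a G protein alpha subunit of the Gq family that couples tachykinin receptors to phospholipase C, came nearest to the adjusted threshold. Its level was -2.12, -2.64, -2.21 and -2.54 in C1 to C4, -3.19, -2.97, -3.39 and -3.45 in M5 to M8 and -2.48, -2.40 and -2.57 in D9 to D11, with -3.74 in D12. All of Group M, M6 included, lay below all of Group C and below D9 to D11. The difference was -0.87 ± 0.15 in Group M vs Group C (limma adjusted p = 0.0575) and 0.76 ± 0.16 in Group D vs Group M (adjusted p = 0.0757). Gnaq, Gnas and the phospholipases of the list did not reach an unadjusted p under 0.05 in Group M vs Group C, and of the 11 signalling genes the other one that did was Adcy6, an adenylyl cyclase, at -0.72 ± 0.20 (adjusted p = 0.111).

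Of 6 enzymes that break down these peptides, 4 had an unadjusted p under 0.05 in Group M vs Group C, against 22.7% of all probes. All 4 had a lower mean in Group M, and none passed the adjusted test or the criterion of the methods. They were neprilysin (Mme), which cuts substance P, at -0.73 ± 0.27 (limma adjusted p = 0.157), Ece1 at -0.31 ± 0.12 (adjusted p = 0.175), Dpp4, which trims substance P and VIP, at -0.90 ± 0.35 (adjusted p = 0.171), and Ece2. M6 lay inside the range of Group C in Mme (-1.78), Ece1 (3.07) and Dpp4 (1.76). D12 lay below all of Group M in Mme (-2.76) and Ece1 (2.49), and below all of Group C in Dpp4 (0.83). For Ece2 no rat of Group M and 2 of 4 in Group C were well above background, so that no fold is given. Its measured means differed by -0.84 ± 0.23 (limma adjusted p = 0.11). Ece2, an endothelin-converting enzyme, was the gene that met the criterion of the methods in Group D vs Group M. It was well above background in D9 to D11 (-6.49 to -6.24) and in none of Group M. Since it was not so marked in C1 at -6.58, no fold is given here either. The measured means differed by 1.05 ± 0.25 (limma adjusted p = 0.0873).

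Of the precursors, Tac2, the neurokinin B precursor, was higher in M5 (0.76), M7 (0.63) and M8 (0.63) than in all of Group C (-0.36 to 0.17), and M6 (-0.21) was not. Its difference was 0.65 ± 0.21 in Group M vs Group C (limma adjusted p = 0.132) and -0.75 ± 0.23 in Group D vs Group M (adjusted p = 0.124). Adm, adrenomedullin, was measured at 0.45 to 1.19 in Group C and at 1.23 to 2.37 in Group M, with no overlap and a difference of 0.89 ± 0.31 (adjusted p = 0.139). Calcrl, the receptor that binds CGRP or adrenomedullin together with a Ramp protein, lay lower in all of Group M than in all of Group C by 0.23 ± 0.13 (adjusted p = 0.331), and so did Crcp, a component of the CGRP receptor, by 0.23 ± 0.11 (limma adjusted p = 0.253).

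In Group D vs Group M the other genes without overlap were Ramp3, an accessory protein of Calcrl (0.29 ± 0.14, limma adjusted p = 0.264), the precursor-processing helpers Pcsk1n (0.37 ± 0.13, adjusted p = 0.159) and Scg5 (0.29 ± 0.12, adjusted p = 0.204), all higher in Group D, and Arrb1, an arrestin that switches off receptors (-0.19 ± 0.15, adjusted p = 0.494). The enzymes that cut and amidate precursors (Pcsk1, Pcsk2, Cpe and Pam) had none with an unadjusted p under 0.05 in either comparison. The PACAP receptor Adcyap1r1, Gip and the calcitonin receptor Calcr were above background on no array.

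**Figure D4:**
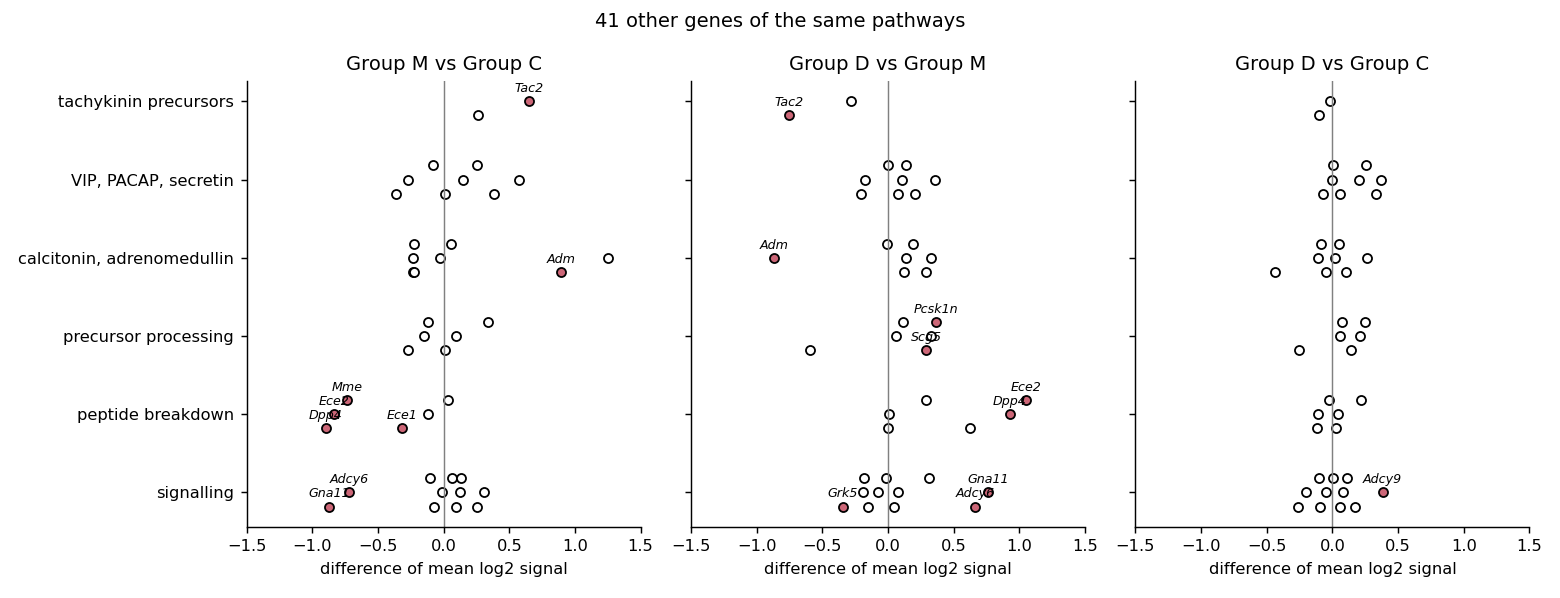
Difference of mean log2 signal (x axis) of 41 other genes of the pathways by role (y axis, spread vertically for legibility), where filled and named points had an unadjusted limma p under 0.05. 4 peptide-breakdown enzymes and Gna11 lie left of 0 in Group M vs Group C, Adm and Tac2 lie right of it, and these genes lie nearer 0 in Group D vs Group C.

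Over all 12 arrays, the genes whose signal followed each member most closely were ranked among 10552 named genes well above background on every array, by Pearson's r and without a test. The arrays share their tissue, groups and slides. Vipr2 was followed most closely by Ulk1 (r = 0.991, Spearman's rho = 0.993), Itgb5 (0.984, 0.923) and Timp4 (0.984, 0.923), and Tacr1 by Ctf1 (0.989, 0.958), Muc1 (0.982, 0.965) and Ilvbl (0.982, 0.916). Tacr2 had Ift81 (0.979, 0.979) and Slc5a6 (0.972, 0.972), and Vipr1 had FAM120C (0.978, 0.951), St7l (0.977, 0.923) and Rtn2 (0.976, 0.986). For these 4 receptors r stayed between 0.957 and 0.982 without the 2 arrays farthest from the median. Calcb was nearest to Sec61b (r = 0.964, rho = 0.867), Cd244 (0.948, 0.79) and Col5a3 (0.939, 0.748).

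The likeness was looser for the others. Tacr3 was nearest to Pcdhga11 (r = 0.95, rho = 0.944), Scube1 (0.896, 0.888) and Rufy2 (0.887, 0.902). Tac1 was nearest to Rac1 (r = 0.933, rho = 0.853), Serpinb6a (0.912, 0.797) and Prr13 (0.907, 0.818), and Vip to Slk (0.913, 0.727), Fam131b (0.906, 0.678) and Atp7a (0.898, 0.818). In these last 2 genes r dropped to between 0.638 and 0.776 without the 2 arrays farthest from the median, of which M7 was one.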

How the data were processed

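Per the file headers, the signal intensities were made by the scanner software (Agilent Feature Extraction 10.5.1.1, rn4 build), with the background subtracted and trends within an array removed before they were deposited. They are not normalized between arrays. The authors' matrix, used as an alternative, holds log2 values that share 1 distribution across arrays.

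Controls and outlier spots were dropped, the log2 signal was set relative to the 75th percentile of the array, and replicate spots were averaged. A probe counted as well above background on an array when at least 50% of its spots were so marked. Tests were made in R 4.3.3 by limma 3.58.1 (3 groups in one model, 11 arrays, Benjamini-Hochberg adjustment over 30367 probes) and by the criterion of the methods on the same values, and were tried on simulated data. Errors are SE from limma, and the number of arrays limits the precision. Where no array of a compared group was above background, no fold is given.

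All member probes are named. Pathway genes are named when they passed limma's threshold or the criterion of the methods, or did not overlap while detected on every array of a group. The peptide-breakdown enzymes, Adcy6, Adcyap1r1, Gip, Calcr and Tac2 were named after their values were seen. For likeness, the 3 genes with the highest Pearson's r are named, 1 probe a gene, whose symbol is in the RefSeq table. A gene like Tacr2 and a B cell marker are not reported here, and the latter was left out of its list. The members, the pathway genes and the markers of 17 cell types were chosen with earlier results of these data known.

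Alternatives were a fit with D12, normexp (offset 50), quantile normalization, centring on the median, the authors' matrix, keeping outlier spots, a filter to 21574 probes detected on every array of a group, the replicate number as a block, array weights, a model of the compared groups alone, other thresholds, and each rat left out. Their use on the criterion of the methods was added after the data were seen.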

Additional observations from a re-analysis of the deposited data

Results flagged for a closer look

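In 4 of 36 sets of 4 rats (12 probes in 3 groups, D12 included), 1 rat stood apart from its group by Dixon's ratio, the gap to the nearest rat over the range. Chance gives such a gap in about 1 in 20 sets. In Calcb, M6 (-2.33) lay below the other rats of Group M (-1.03 to -0.84, ratio 0.869), at the level of Group C. In Tacr1, D12 (-4.30) lay below D9 to D11 (-2.95 to -2.86, ratio 0.933), and so it did in Vipr2 (-1.51 against -0.40 to -0.22, ratio 0.854). In the other probe of Tac1, C4 (-3.21) lay above C1 to C3 (-3.80 to -3.75, ratio 0.929). D12 was the rat with the highest B cell markers (0.78) and M6 the rat of Group M with the lowest (-4.92), and their part in these values was not tested.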

How the results depend on the processing

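Of 657 recomputed differences of single members, 638 kept their sign. The other 19 changed it: with D12 Vipr1 was at -0.0131 in Group D vs Group C, Tacr3 was at 0.0193 with normexp and at 0.0065 by the authors' matrix in Group D vs Group M, centred on the median Vipr2 was at 0.0077 in Group D vs Group C, and with array weights Calca was at -0.0875 in Group M vs Group C. With each rat left out in turn, Calca ran from -0.2525 to 0.353 in Group M vs Group C and from -0.1452 to 0.5869 in Group D vs Group M, Tacr3 from -0.3899 to 0.1276 in Group D vs Group M, and in Group D vs Group C Tac1 ran from -0.059 to 0.18, Vip from -0.026 to 0.0803 and Vipr2 from -0.2082 to 0.0908.

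The adjusted test called 0 members and 0 pathway genes. Array weights gave 4 members and 5 pathway genes in Group M vs Group C, and 5 and 4 in Group D vs Group M. Normexp and the filter on dim probes each gave 1 member, Vipr1, in Group D vs Group M. An unadjusted p of at most 0.01 gave the same numbers as the criterion of the methods, 2 members in Group M vs Group C and 3 members and 1 pathway gene in Group D vs Group M, and an adjusted p of at most 0.1 gave 2 and 1 in that last comparison. Leaving out single rats, members called ran from 0 to 5 in Group M vs Group C and from 0 to 6 in Group D vs Group M, and pathway genes from 0 to 3 in both, with M6 as the rat whose absence gave the highest. Group D vs Group C had 0 throughout. The share of all probes that passed under each alternative, by limma or by the criterion of the methods, is not given here. The causes were not tested.

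The criterion of the methods was met by 2 members in Group M vs Group C, by 1 with normexp, and by 0 (without M8) to 5 (without M6) with a rat left out, with 3 without C2. Between Group D and Group M it was met by 3, by 0 with D12, and by 1 (without M7) to 6 (without M6), and by 2 without C1, C3, M5, M8, D9 or D11. With quantile normalization, centring on the median or the authors' matrix, Iapp met it beside these 3.

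With the replicate block 0 members were called, and Vipr2 was at 0.0015 in Group D vs Group C. The numbers did not pair the rats: deviations of same-numbered rats correlated between -0.559 and 0.126, and 1 of 11 arrays was closest to a rat of its own number.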
